A study of Mus musculus with 4 samples.

Results

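Lysosomal hydrolases and lysosomal membrane proteins were compared between livers of Nrg4 knockout (KO) and wild-type (WT) mice. The set holds 33 genes, chosen by name for their role in the lysosome, with earlier results of these data known. They are 10 cathepsins and other proteases, 8 glycosidases, 5 lipid hydrolases and activator proteins, 5 membrane proteins and 5 subunits of the proton pump. Of these, 32 had a probe set paired with that gene alone and all 32 passed the filter on dim genes, out of 22180 genes with such a probe set and 12458 tested. Glb1 (beta-galactosidase) was the exception, since its probe set is shared with Tmppe. Arrays (Affymetrix Mouse Gene ST) were hybridised with 2 RNA pools of KO liver and 2 of WT liver, all from male mice lacking or carrying Nrg4 (neuregulin 4), a secreted protein that activates ErbB receptors. Both genotypes were kept for 20 weeks on a NASH diet, which induces fatty and inflamed liver, starting when the mice were 3 months old. The WT controls thus had diet-fed livers too, and tissue was taken in the fed state. The sources used here do not state how many animals made a pool or whether the deletion was in all tissues.

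Lysosomes are acidic compartments that break down proteins, glycans, glycogen and lipids delivered by endocytosis and autophagy. A proton pump (the V-ATPase) acidifies the lumen, heavily glycosylated membrane proteins line the wall, and most soluble hydrolases are delivered through mannose 6-phosphate receptors. In the liver hepatocytes use them for autophagy and for the acid hydrolysis of cholesteryl esters and triglycerides, while macrophages hold large amounts of cathepsins and of Cd68. The transcription factors TFEB, TFE3 and MITF bind an E-box type sequence in the promoters of many lysosomal genes.

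Levels are the deposited log2 values, whose zero point is unknown, and differences are KO minus WT on that scale. The 4 arrays had medians between 0.52 and 0.64. Across the tested genes the KO pools correlated at r = 0.975 and the WT pools at r = 0.979, and pools of different genotype at 0.966 to 0.973, a description across genes that are not independent. Nrg4 itself was at 0.93 in both KO pools, against 2.54 and 2.30 in the WT pools (difference -1.49 ± 0.20 SE, limma, adjusted p = 0.182 over all 22180 genes). The sources used here do not state whether its probe set lies in the deleted part. Hepatocyte markers were high in all pools, with Alb (albumin) at 10.7 and 10.8 in KO and at 10.9 in both WT pools.

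As a group, the lysosomal genes had differences centred near 0 between KO and WT livers. None of the 32 passed the threshold (limma, adjusted p under 0.05 over all tested genes), where 0.0482% of all genes tested did, 0.0241% higher and 0.0241% lower in KO. When the variance was allowed to follow intensity none passed either, against 1.09% of all genes (0.393% higher and 0.698% lower in KO). The differences split evenly, 16 above 0 and 16 below, where 51.6% of all genes were above 0, and their median was -0.0001, against 0.01 over all genes tested. The quartiles of the members were -0.06 and 0.17, against -0.20 and 0.24 for all genes. An unadjusted p under 0.05 was reached by 4 members (12.5%), against 10.3% of all genes, which is near the background. Of these, 3 were higher in KO (9.38%, against 6.37% of all genes) and 1 lower (3.12%, against 3.92%). With the variance following intensity 5 members (15.6%) reached it, against 12.2% of all genes. These 5 include Ctsd and Scarb2 and leave out the protease Ctsk (limma, unadjusted p = 0.0855 with that model), which was among the 4. A difference over 0.5 in size was seen in 3 members (9.38%), against 16.7% of all genes. The members were brighter than the tested genes in general, with a mean level of 5.96 against 3.19 in KO replicate 1. Their median SE was 0.20, against 0.23, and the shares and quartiles were not matched for brightness. In 16 of the 32 members the pools of the genotypes did not overlap, against 41.7% of all genes. The 4 at an unadjusted p under 0.05 without that variance model were the macrophage membrane protein Cd68 and the proteases Ctsk and Lgmn, with positive differences, and the pump subunit Atp6v1h, with a negative one. The number depended on the normalization: it was 3 with quantile normalization and 1 with arrays centred on their medians. The share of all genes under these settings is not given here. Because exact permutation of 2 pools against 2 cannot give a p below 0.333, the p-values rest on the variance model, and they measure the spread between pools only.

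Intervals were read gene by gene, without adjustment for the number of genes. They rest on 2 pools a genotype and on the model in which the variance does not follow intensity. The 95% limma interval reached 0.46 to 0.71 to either side of the difference. For 29 of the 32 members it lay within -1 to 1, that is within a 2-fold change in either direction. The exceptions were Cd68 (0.02 to 1.41), Ctsk (0.04 to 1.05) and Atp6v1h (-1.15 to -0.14). Replicate pools of a genotype were close, with a median SD of 0.11 in KO and 0.09 in WT over the members. The widest spreads were 0.37 for Man2b1 in KO and 0.51 for Naglu in WT.

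**Figure D1:**
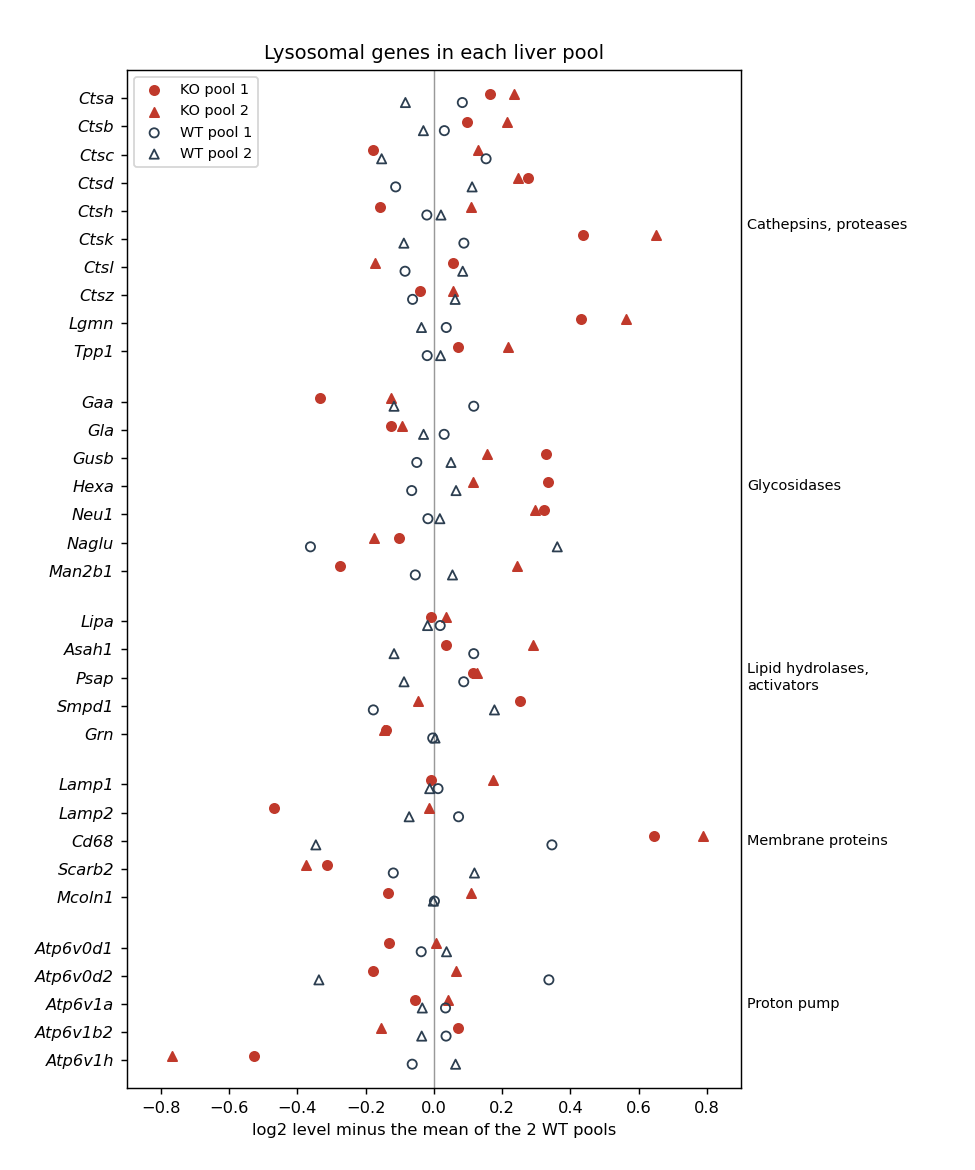
The log2 level of each of 32 lysosomal genes in the 4 liver pools, as the distance from the mean of the 2 WT pools (x axis), with genes grouped by role (y axis). Filled red symbols are KO pools, open symbols WT pools, and circles and triangles are pools 1 and 2. Both KO pools of Cd68, Ctsk and Lgmn lie to the right of the WT pools and both of Atp6v1h to the left, while for 16 genes the genotypes overlap.

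**Figure D2:**
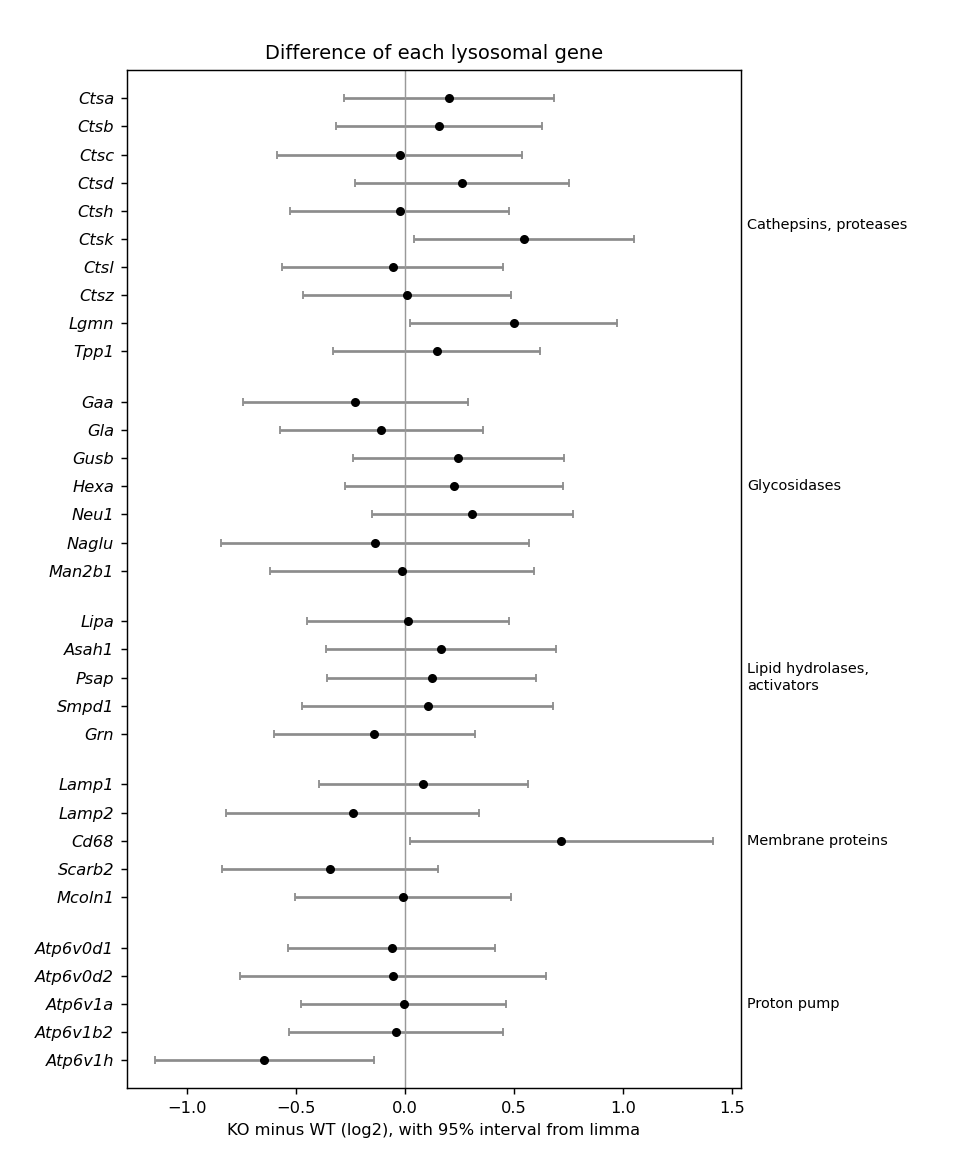
KO minus WT differences of the same 32 genes on the log2 scale (points, x axis) with 95% intervals from limma (bars). The intervals of Cd68, Ctsk, Lgmn and Atp6v1h leave out 0, and those of the other 28 genes include it. They come from the model in which the variance does not follow intensity.

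Some of the genes share a promoter feature. The sources used here do not state whether such promoters played a part in drawing up the gene list. RefSeq promoter windows (GRCm38.p6, 250 bases before to 50 after a start site) were at hand for 27 of the 33 members. The letters CACGTG, an E-box and the core of the sequence that TFEB and its relatives recognise, occurred in 12 of these 27 genes (44.4%), against 2187 of 27025 genes (8.09%) and 7.15% of all windows of that length. This sequence is its own reverse complement, so 1 search covers both strands. Flanked by T and A it was found in 6 members (22.2%; 1.12% of all genes), and preceded by GT on either strand in 9 (33.3%; 2.55% of all genes). Both longer forms contain the E-box and are counted in it. By role, the E-box was held by 4 of 8 proteases, 4 of 8 glycosidases, 0 of 4 lipid hydrolases and activators, 2 of 5 membrane proteins and 2 of 2 pump subunits. Of 99 other lysosomal genes listed, 78 had a promoter window, and 14 of these held it (17.9%). They need not be the same genes as the 78 tested on the arrays. A match is a description of letters and not of binding, and base composition of the promoters was not compared.

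Stretches of 7 of these promoters are given because they show the feature with its spacing and because these genes recur in the results below. Each is read 5′ to 3′ on the strand of the gene and ends no later than the base before the start site, and capitals mark the E-box. Lamp1 (chr8:13159088-13159160, plus strand) holds 4 copies, beginning at positions -61, -45, -28 and -15 from the start site. Mcoln1 (chr8:3500436-3500491, plus strand) and Gla (chrX:134601182-134601244, minus strand) each hold 2, at -71 and -45 and at -227 and -194. Ctsd (chr7:142387908-142388077, minus strand) holds 2 at -245 and -98. Naglu (chr11:101070009-101070038, plus strand) has 1 at -73. Lgmn (chr12:102439124-102439153, minus strand, the second of 2 start sites) has 1 at -49. Ctsa (chr2:164833749-164833772, plus strand, the second of 2 start sites) has 1 at -12 and another beyond the start site.
Lamp1: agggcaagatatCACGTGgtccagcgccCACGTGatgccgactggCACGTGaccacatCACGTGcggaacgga
Mcoln1: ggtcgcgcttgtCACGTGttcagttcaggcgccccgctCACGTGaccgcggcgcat
Gla: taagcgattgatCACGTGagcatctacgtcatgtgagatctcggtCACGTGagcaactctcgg
Ctsd: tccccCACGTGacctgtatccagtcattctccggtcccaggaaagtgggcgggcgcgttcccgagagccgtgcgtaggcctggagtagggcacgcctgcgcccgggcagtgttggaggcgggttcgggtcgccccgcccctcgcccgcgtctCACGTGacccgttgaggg
Naglu: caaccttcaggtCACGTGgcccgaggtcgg
Lgmn: tggaatgtctgtCACGTGgtccattttata
Ctsa: tgagcaaactgtCACGTGatgcag

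The 11 tested members with an E-box had a median difference of -0.01, with 4 above 0 and 7 below, and ran from -0.23 (Gaa) to 0.50 (Lgmn). The 15 tested members whose promoter window lacked it had a median of 0.10, with 10 above 0 and 5 below, from -0.34 (Scarb2) to 0.72 (Cd68). The difference between these sets was not tested.

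**Figure D3:**
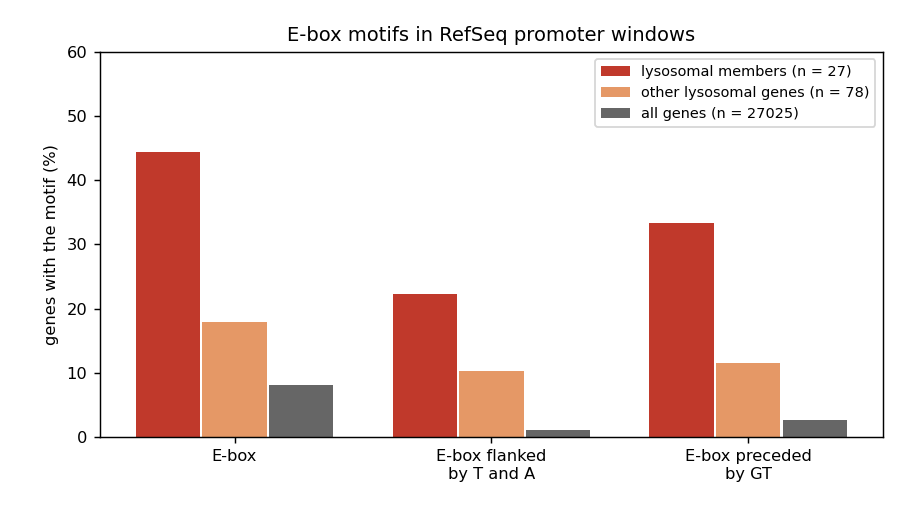
Share of genes (%, y axis) whose RefSeq promoter window holds the E-box, alone or with the 2 extensions (x axis). Shown are the 27 lysosomal members, 78 other lysosomal genes and 27025 genes in all that had a window. The members stand at 44.4%, 22.2% and 33.3%, against 8.09%, 1.12% and 2.55% of all genes.

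Among the proteases, most differences were small and positive. The 10 genes had a median of 0.15, and 7 were above 0. The median was 0.22 after quantile normalization and 0.0846 without KO replicate 2. In 6 of them both KO pools lay above both WT pools and in none below, where 22.2% of all tested genes lay above and 19.5% below. Legumain (Lgmn), an asparaginyl endopeptidase that processes other cathepsins, was at 6.96 and 7.09 in the KO pools and at 6.57 and 6.50 in the WT pools. The groups were 0.40 apart at their nearest, and the difference of 0.50 ± 0.19 (SE) had the smallest adjusted p of the set with a variance that follows intensity (limma, 0.113; 0.474 without that model).

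Cathepsin K (Ctsk), a collagen-degrading protease best known from osteoclasts, was at 1.13 and 1.35 in KO, against 0.78 and 0.61 in WT. Its difference was 0.54 ± 0.20 (limma, adjusted p = 0.460), and the SE was 0.28 with a variance that follows intensity. The KO and WT means lay 0.70 and 0.15 above the median of all probe sets, so this gene was dim in both genotypes. With a stricter filter on dim genes it was not tested.

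The aspartic protease cathepsin D (Ctsd) was at 8.31 and 8.27 in KO and at 7.92 and 8.14 in WT, a difference of 0.26 ± 0.20 that was 0.15 without WT replicate 1. Cathepsin A (Ctsa), the carboxypeptidase that also stabilises neuraminidase 1, was at 6.71 and 6.78 in KO, against 6.63 and 6.46 in WT. The cysteine protease cathepsin B (Ctsb) was at 9.05 and 9.16 in KO and at 8.98 and 8.92 in WT. In these 3 genes the genotypes were separated by 0.13 or less, and without 1 pool the differences of Ctsa and Ctsb lay between 0.12 and 0.28 and between 0.0972 and 0.21. Tpp1, a tripeptidyl peptidase, had the narrowest separation of the proteases that did not overlap, with 7.56 and 7.70 in KO against 7.47 and 7.51 in WT. Cathepsins C, H, L and Z (Ctsc, which activates granule proteases, Ctsh, an aminopeptidase, Ctsl, an endopeptidase, and Ctsz, a carboxypeptidase) overlapped between genotypes. Their differences lay between -0.06 and 0.01, each with an SE of 0.19 to 0.23.

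The glycosidases took both directions. Of 7 measured, 3 were above 0 and 4 below, with a median of -0.02 that turned to 0.06 after quantile normalization, and to 0.11 without KO replicate 1 and 0.22 without WT replicate 2. Neuraminidase 1 (Neu1), which removes sialic acid, was at 4.55 and 4.53 in KO, against 4.21 and 4.25 in WT. Its pools did not overlap, and its difference of 0.31 ± 0.19 did not pass (limma, adjusted p = 0.634). Beta-glucuronidase (Gusb) was at 5.26 and 5.09 in KO and at 4.88 and 4.98 in WT, a difference of 0.24 ± 0.20 that was 0.16 without KO replicate 1. Hexa, the alpha subunit of beta-hexosaminidase, was at 6.25 and 6.02 in KO, against 5.85 and 5.98 in WT, a difference of 0.22 ± 0.20 that was 0.11 without KO replicate 1.

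Acid alpha-glucosidase (Gaa), which degrades lysosomal glycogen, was at 5.38 and 5.60 in KO and at 5.84 and 5.60 in WT, so its separation of 0.01 was within the spread between pools. Alpha-galactosidase A (Gla) was at 2.66 and 2.69 in KO, against 2.82 and 2.76 in WT. The other members of this class did not separate the genotypes. Naglu, an enzyme of heparan sulphate breakdown, was at 3.87 and 3.80 in KO and at 3.61 and 4.33 in WT, and its difference of -0.14 turned to 0.22 without WT replicate 2. The lysosomal mannosidase Man2b1 was at 5.35 and 5.87 in KO, against 5.57 and 5.68 in WT.

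The 5 lipid hydrolases and activators had a median difference of 0.10, with 4 above 0. That median was between 0.0319 and 0.0365 without any 1 of the 4 pools. The differences of Asah1 and Psap ranged from 0.0341 to 0.29 and from 0.0335 to 0.21 without 1 pool. Acid lipase (Lipa), which hydrolyses cholesteryl esters and triglycerides taken up by the cell, was at 8.50 and 8.55 in KO and at 8.53 and 8.49 in WT. Its difference was 0.01 ± 0.19 (95% interval -0.45 to 0.48). Acid ceramidase (Asah1) was at 4.33 and 4.59 in KO, against 4.41 and 4.18 in WT, and overlapped. Prosaposin (Psap), the precursor of activators of sphingolipid hydrolases, was at 8.04 and 8.05 in KO and at 8.01 and 7.84 in WT.

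Progranulin (Grn), a secreted and lysosomal partner of prosaposin, stood apart by its tight pools, at 7.42 and 7.41 in KO against 7.55 and 7.56 in WT. Both KO pools were lower, yet the difference was only -0.14 ± 0.19 and did not pass. Acid sphingomyelinase (Smpd1) had 2 probe sets that disagreed in size. The brighter was at 4.77 and 4.47 in KO, against 4.34 and 4.69 in WT. The other was at 2.84 and 2.98 in KO and at 2.34 and 2.46 in WT, so the genotypes overlapped by the first (difference 0.10) and not by the second (0.51).

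Of the membrane proteins, Cd68 had the largest difference of the set. This mucin-like protein of macrophage lysosomes was at 5.40 and 5.55 in KO, against 5.11 and 4.42 in WT. The KO pools were both higher, but the WT pools were themselves 0.69 apart. The difference was 0.72 ± 0.28, or 1.64-fold, and did not pass (limma, adjusted p = 0.480). It was 0.37 without WT replicate 2 and 1.06 without WT replicate 1. Scarb2, the receptor that carries glucocerebrosidase to lysosomes, lay the other way, at 6.74 and 6.68 in KO and at 6.94 and 7.17 in WT (difference -0.34 ± 0.20, adjusted p = 0.625). It was -0.23 without WT replicate 2.

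The structural glycoprotein Lamp1, whose promoter carries the 4 E-boxes shown above, was at 8.54 and 8.72 in KO, against 8.56 and 8.53 in WT. Lamp2, which serves autophagosome fusion and chaperone-mediated autophagy, was at 7.22 and 7.68 in KO and at 7.76 and 7.62 in WT. Its difference of -0.24 was -0.01 without KO replicate 1 and -0.47 without KO replicate 2. Mcoln1, the lysosomal calcium channel mucolipin 1, was at 4.64 and 4.89 in KO, against 4.78 and 4.77 in WT. All 3 overlapped between genotypes.

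Among the proton pump subunits only Atp6v1h had pools that did not overlap between genotypes. The median over the 5 subunits was -0.06, which turned to 0.02 after quantile normalization and to 0.0059 without KO replicate 1. It was -0.13 without KO replicate 2 and -0.007 without WT replicate 1. Atp6v1h, a regulatory subunit of the cytosolic sector, was at 3.76 and 3.52 in KO, against 4.22 and 4.35 in WT. The pools were 0.46 apart at their nearest, the widest separation among the members. Its difference of -0.65 ± 0.20 (0.638-fold) had the smallest adjusted p of the set (limma, 0.394), and so did not pass. Without 1 pool it lay between -0.77 and -0.53.

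The catalytic subunit Atp6v1a was at 5.38 and 5.47 in KO and at 5.47 and 5.40 in WT. Atp6v1b2, of the same cytosolic sector, was at 5.89 and 5.67 in KO, against 5.86 and 5.79 in WT. Its second, dimmer probe set gave 0.17 where the first gave -0.04. Atp6v0d1, a subunit of the membrane sector, was at 5.85 and 5.99 in KO and at 5.95 and 6.02 in WT. Its relative Atp6v0d2, typical of osteoclasts and some macrophages, was at 3.00 and 3.24 in KO, against 3.51 and 2.84 in WT. The differences of these 4 lay between -0.06 and -0.01, and with quantile normalization those of Atp6v0d1, Atp6v1a and Atp6v1b2 turned to values between 0.02 and 0.05.

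The members with the highest differences were measured beside markers of macrophages. The marker lists too were drawn up with earlier results of these data known. Of 14 markers of monocyte-derived macrophages, 13 had differences above 0, with a median of 0.67, and 8 had an unadjusted p under 0.05 (57.1%, against 10.3% of all genes). None passed the adjusted threshold, with or without a variance that follows intensity. Their summed log2 levels were 46.7 and 48.8 in the KO pools, against 38.6 and 38.9 in the WT pools. Trem2, a lipid receptor of such cells, was at 2.73 and 3.13 in KO and at 1.33 and 1.94 in WT. The chemokine receptor Cx3cr1 was at 2.06 and 2.68 in KO, against 0.32 and 1.22 in WT.

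Markers of resident Kupffer cells had differences in both directions. Their median over 11 genes was -0.01, with 5 above 0 and 6 below, and their summed levels were 49.0 and 47.5 in KO, against 50.6 and 52.7 in WT. Clec4f, a lectin of these cells, was at 5.29 and 4.92 in KO and at 4.58 and 4.97 in WT, and Timd4 was at 1.40 and 1.31 in KO, against 1.51 and 2.01 in WT. An unadjusted p under 0.05 was reached by 3 of the 11 (27.3%, against 10.3% of all genes), all lower in KO. When the variance followed intensity 1 passed the adjusted threshold (9.09%, against 1.09% of all genes), also lower in KO, and without that model none did. The scavenger receptors Marco and Cd163 were chosen after their values were seen. Marco, which binds particles and bacteria, was at 0.76 and 0.66 in KO, against 2.63 and 3.53 in WT (-2.37 ± 0.33; limma, adjusted p = 0.181, or 0.0181 when the variance followed intensity). Cd163, the haemoglobin-haptoglobin receptor, was at 1.24 and 1.11 in KO and at 2.93 and 2.47 in WT (-1.53 ± 0.23; adjusted p = 0.186, or 0.0640 with that model).

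Osteoclast markers, looked at because of Ctsk and Atp6v0d2, had a median of -0.01 over 6 tested genes, and the summed levels of all 8 listed were 14.1 in both KO pools, against 14.1 and 13.7 in WT. Hepatocyte markers had a median of -0.14, with 2 of 10 above 0, and sums of 80.2 and 80.9 in KO, against 81.7 and 82.6 in WT. In 6 of the 10 both KO pools lay below both WT pools (against 19.5% of all genes), and in 1 above. An unadjusted p under 0.05 was reached by 4 when the variance followed intensity (against 12.2% of all genes) and by none without that model. With it 1 passed the adjusted threshold, against 1.09% of all genes. That was Cps1, lower in KO, at 9.39 and 9.47 against 9.79 and 9.85 in WT. Its difference was -0.39 ± 0.19 (limma, adjusted p = 0.0427 with that model and 0.564 without). Stellate cell and fibroblast markers had a median of 0.70, with 12 of 14 above 0, and sums of 62.0 and 63.9 in KO, against 54.8 and 52.0 in WT. Of these 14, 8 had an unadjusted p under 0.05 (57.1%, against 10.3% of all genes). When the variance followed intensity 2 passed the adjusted threshold (14.3%, against 1.09% of all genes), both higher in KO, and without that model none did. Neutrophil markers were at the low end of the scale, with 9 of 10 below the filter and S100a8 at -0.10 and -0.15 in KO, against -0.15 and 0.36 in WT. Cholangiocyte markers had a median of 0.79, with 5 of 6 tested genes above 0, and 3 of the 9 with a value were below the filter. The cadherin Cdh1, chosen after its values were seen, was at 4.76 and 5.36 in KO, against 3.62 and 3.26 in WT (1.62 ± 0.28; limma, adjusted p = 0.234, or 0.0206 when the variance followed intensity). The keratin Krt19 was at 0.64 and 0.81 in KO and at 0.79 and 0.78 in WT, a difference of -0.06 at a level near the filter (0.54). Endothelial markers had a median of 0.05 over 10 genes, and lymphocyte markers one of -0.02 over 10. The part of these cell markers in the differences of Cd68, Ctsk and Lgmn was not tested, and in bulk liver RNA a change in cell number and a change in RNA per cell cannot be told apart.

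**Figure D4:**
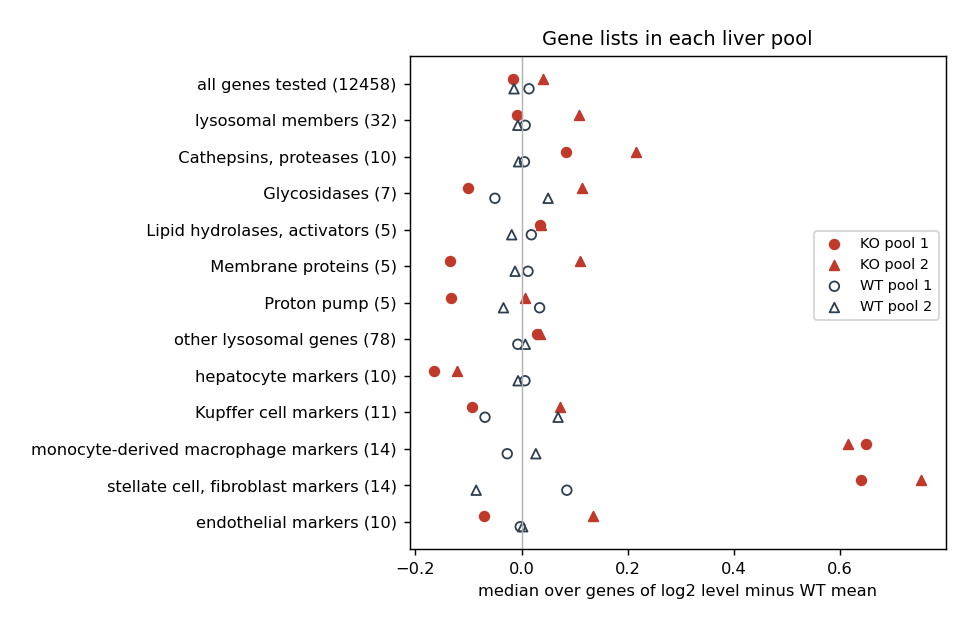
For each gene list (y axis, number of tested genes in parentheses), the median over genes of the log2 level minus the WT mean (x axis) in each pool, with KO pools filled and WT pools open. The lysosomal members stand at -0.01 and 0.11 in the KO pools, against 0.01 and -0.01 in the WT pools, and the monocyte-derived macrophage markers at 0.65 and 0.62, against -0.03 and 0.03.

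Further genes of the lysosome were read in the same way. Of 99 other hydrolases, membrane proteins and pump subunits listed, 78 were tested, with a median of 0.03, 41 above 0 and 37 below. None passed the adjusted threshold by limma, and 3 (3.85%) had an unadjusted p under 0.05, against 10.3% of all genes. When the variance followed intensity 1 passed (1.28%, against 1.09% of all genes). That was the tetraspanin Cd63 of late endosomes and lysosomes, higher in KO, at 5.62 and 5.54 in KO and at 4.49 and 4.70 in WT (0.98 ± 0.20; adjusted p = 0.0330 with that model and 0.269 without). The other 2 were Ctss and Galns. Cathepsin S (Ctss), an antigen-processing protease of macrophages and dendritic cells, was at 7.46 and 7.44 in KO, against 7.09 and 6.72 in WT (0.54 ± 0.22). Galns, which removes sulphate from keratan and chondroitin sulphate, was at 3.02 and 2.70 in KO and at 2.37 and 1.90 in WT (0.73 ± 0.25).

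The other genes with the 3 smallest p-values in each class had differences in both directions. Cathepsin F (Ctsf) differed by -0.38 ± 0.19 and cathepsin O (Ctso) by -0.40 ± 0.21. Among sulphatases and glycosidases, arylsulphatase A (Arsa) differed by -0.41 ± 0.19 and iduronidase (Idua) by -0.58 ± 0.27. Among lipid hydrolases and activators the values were small, with -0.21 ± 0.19 for the activator Gm2a, 0.18 ± 0.19 for Plbd2 and 0.22 ± 0.25 for the thioesterase Ppt1. Of the other membrane proteins, Cln3 differed by 0.46 ± 0.22 and Laptm4b by 0.43 ± 0.21. Of the other pump subunits, Atp6v1g2 differed by -0.73 ± 0.36, Atp6v1d by 0.35 ± 0.19 and Atp6v0a2 by -0.33 ± 0.24. None of these passed by limma over all genes.

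**Figure D5:**
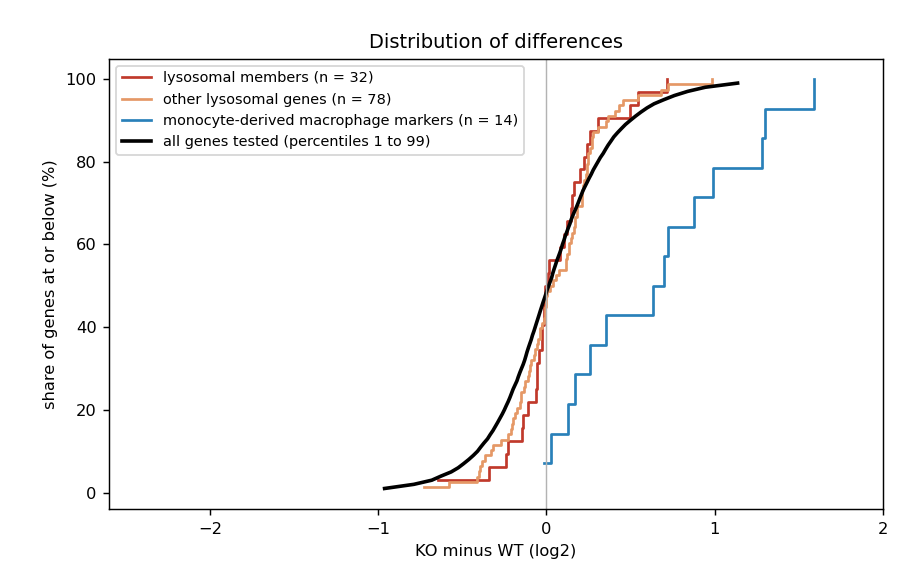
Cumulative share of genes (%, y axis) by KO minus WT difference on the log2 scale (x axis) for 32 lysosomal members, 78 other lysosomal genes, 14 monocyte-derived macrophage markers and all 12458 tested genes. The medians are -0.0001, 0.03, 0.67 and 0.01.

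Genes that deliver hydrolases to lysosomes, control them or feed them through autophagy were also read. Of 24 tested sorting genes none passed, with a median of 0.07, and 15 were above 0. Gnptab, a subunit of the enzyme that makes the mannose 6-phosphate tag, was at 3.57 and 3.82 in KO, against 3.30 and 2.61 in WT (0.74 ± 0.29; adjusted p = 0.474). The adaptor Gga3 differed by 0.41 ± 0.21 and Vps18, a subunit of tethering complexes, by -0.45 ± 0.24. Of 15 regulators tested, 1 (6.67%) passed, against 0.0482% of all genes. The list was drawn up with earlier results of these data known, so that share says nothing about regulators as a class. The gene that passed was the Rag GTPase Rragd, which was higher in KO, at 4.84 and 5.001 against 2.31 and 2.19 in WT (limma, adjusted p = 0.0378). This call was lost whichever of the 4 pools was left out, when 0 of all genes passed. The median of these regulators was -0.01. Tfec, a relative of TFEB, was at 1.26 and 1.28 in KO, against 1.70 and 2.12 in WT (-0.64 ± 0.22; adjusted p = 0.431), and Lamtor4, of the complex that anchors Rag GTPases to lysosomes, differed by 0.32 ± 0.19.

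Autophagy genes had a median of -0.155 over 20 tested, with 13 below 0. In 7 of them both KO pools lay below both WT pools (35.0%, against 19.5% of all genes), and in 2 above. None passed the adjusted threshold, and 1 had an unadjusted p under 0.05 (5.0%, against 10.3% of all genes). That was Gabarapl2, an Atg8 family protein of autophagosome membranes, at 1.50 and 1.12 in KO against 2.09 and 2.06 in WT (-0.77 ± 0.22; adjusted p = 0.364). Atg9a, the membrane-spanning autophagy protein, differed by -0.38 ± 0.19 and Gabarapl1 by -0.37 ± 0.21.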

How the data were processed

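Liver RNA pools, 2 of Nrg4 KO and 2 of WT mice, were measured on 1 array each. Biotin-labelled targets were made from 400 ng total RNA, per the labels. The deposited values are log2 expression of 41345 probe sets; per the submitters' processing notes RMA, oligo and limma were used, and the sources used here do not state their versions, their order or the zero point of the scale. Single-symbol probe sets (23521; 1814 had several symbols and 16010 none) were named by the platform annotation, and for each gene the probe set with the highest mean was kept. Genes whose mean reached 0.54, the probe sets' median, were tested with limma 3.58.1 in R 4.3.3 (lmFit, eBayes, no covariate; 3.67 prior and 2 residual degrees of freedom) and Benjamini-Hochberg adjustment over 12458 genes, called under 0.05. The procedure was tested on simulated data. Nrg4 was read from a fit with no filter. The number of arrays limits the precision, no detection calls or scan dates were used, and levels of different probe sets are not comparable. The main fit did not pair pools by number. Deviations of same-numbered pools correlated at -0.04 over genes, which with 2 pools a genotype cannot settle whether they were paired. Members and lists were chosen with earlier results of these data known. Named are all members, the 3 genes of each other lysosomal list with the smallest p or any called, and defining cell type markers. RefSeq promoters (GRCm38.p6) were searched for the E-box. Alternatives were the variance model, filter, normalization, probe set rule, replicate block and leaving out each pool.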

Additional observations from a re-analysis of the deposited data

How the results depend on the processing

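No lysosomal member passed under any of the 12 alternatives run. Of 383 member differences recomputed under alternatives, 350 kept their direction and 33 turned. The turns were in 14 members whose reported difference was at most 0.14 in size, and the cause was not tested. A change of variance model or filter and the replicate block leave a difference as it was, so many of the 350 were fixed in advance. Only normalization, the probe set rule and leaving out a pool could turn a sign. The count over all genes, 6, was 136 with a variance that follows intensity, 2 with a replicate block and 0 without any 1 pool. The other lysosomal genes called, 0, were 1 with a variance that follows intensity. The median over members was 0.0618 with quantile normalization and -0.0085 to 0.11 without 1 pool. The protease median was 0.22 with quantile normalization. That of glycosidases was -0.10 to 0.22 without 1 pool. That of lipid hydrolases, reported at 0.10, was 0.0553 with arrays centred on their medians, 0.12 with the mean of probe sets and 0.0319 to 0.0365 without 1 pool. With quantile normalization Ctsc was at 0.0628, Ctsh at 0.0609, Ctsl at 0.033, Man2b1 at 0.0577, Mcoln1 at 0.0145, Atp6v0d1 at 0.0163, Atp6v1a at 0.0548 and Atp6v1b2 at 0.044. With centred arrays Ctsz was at -0.0394 and Lipa at -0.0335, and with the mean of probe sets Atp6v1b2 was at 0.0644. Without 1 pool the ranges were -0.18 to 0.13 for Ctsc, -0.16 to 0.11 for Ctsh, -0.17 to 0.0552 for Ctsl, -0.0548 to 0.0698 for Ctsz, -0.50 to 0.22 for Naglu, -0.28 to 0.24 for Man2b1, -0.0097 to 0.0365 for Lipa, -0.0753 to 0.28 for Smpd1, -0.0072 to 0.17 for Lamp1, -0.13 to 0.11 for Mcoln1, -0.13 to 0.0059 for Atp6v0d1, -0.39 to 0.28 for Atp6v0d2, -0.0566 to 0.0411 for Atp6v1a and -0.15 to 0.0694 for Atp6v1b2. Nrg4 stayed between -1.60 and -1.37 and did not pass in any alternative. The E-box share was 40.7% when bases after the start site were left out. The replicate block changed no call of a member. Dim genes such as Ctsk lie near the low end of the scale, which limits what can be seen there.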

Other observations

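The probe set shared by Glb1 and Tmppe, left out of the gene tests, was at 2.40 and 1.75 in the KO pools, against 1.72 and 2.05 in the WT pools, and overlapped between genotypes.

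Of the other Kupffer cell markers, Vsig4, a complement receptor, was at 5.24 and 5.40 in KO, against 5.31 and 5.35 in WT, and Cd5l, a secreted macrophage protein, was at 6.39 and 6.22 in KO and at 5.86 and 6.02 in WT.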
